A study of Mus musculus with 9 samples.

Results

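The genes described here encode the CD3 signalling chains of the T cell receptor (Cd3e, Cd3d, Cd3g and Cd247), the coreceptors CD4 and CD8 (Cd4, Cd8a and Cd8b1) and the related surface receptors CD5 and CD6 (Cd5 and Cd6). They were taken by gene symbol, and all 9 of 9 were found among the 46078 genes of the deposited table. RNA was sequenced from transcript 3′ ends in 6 T cell lymphomas induced by MYCN, an oncogenic transcription factor of the MYC family, and in 3 samples of normal CD4+ T cells. Thymus was the source of the lymphoma cells and spleen that of the CD4+ T cells, and the strain was C57BL/6J throughout. Age, sex, treatment and the promoter or cell type that drove MYCN are not given in the sources used here. Lymphomas carry the numbers of their labels (34, 53, 56, 70, 72 and 86) and the CD4 libraries the numbers 1, 2 and 3. Tissue and group coincided, so tissue of origin and tumour state cannot be told apart. Nothing in the labels says that the samples came from separate animals, so p-values measure the spread between these samples.

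The T cell receptor heterodimer has no signalling tail of its own and relies on the CD3 gamma, delta and epsilon chains and on the zeta chain (Cd247), whose cytoplasmic motifs are phosphorylated by the kinase LCK and then recruit ZAP70. CD4 and CD8 bind the invariant parts of MHC class II and class I and bring LCK to the receptor. Developing thymocytes first lack both coreceptors, then carry both, and then keep either CD4 or CD8 as they mature. CD8 is a dimer of an alpha chain (Cd8a) with a beta chain (Cd8b1) on conventional T cells, while alpha homodimers occur on some innate-like T cells and dendritic cells. Many gamma-delta T cells carry neither coreceptor.

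Reads counted in genes ranged from 11170704 to 15769679 in lymphoma and from 8099960 to 10808828 in CD4. Values are counts per 1000000 of the scaled library size (CPM). A count of 0 allowed up to 3 counts, which is 0.183 to 0.274 CPM in a lymphoma and 0.275 to 0.359 CPM in a CD4 library. Intervals and these limits cover counting error only. Lymphoma 53 stood apart from the other lymphomas, with a mean Pearson r across genes of 0.891 with the other lymphomas against 0.936 to 0.943 for the remaining lymphomas (genes are not independent replicates). The CD4 libraries also held RNA of other cell types. For 12 of 12 listed B cell markers the lowest CD4 library exceeded the highest lymphoma, as for 22.3% of all tested genes. Their summed level was 2438 to 2985 CPM in CD4 and 253 to 413 CPM in lymphoma. Most of the sum in lymphoma was Ighm, with 242 to 403 CPM there and 943 to 1372 CPM in CD4. Listed dendritic cell markers summed to 848 to 935 CPM in CD4 and 126 to 387 CPM in lymphoma, and myeloid markers to 863 to 1092 and 81.3 to 2192 CPM. The myeloid sum was 2192 CPM in lymphoma 56, 801 CPM in lymphoma 34 and 81.3 to 254 CPM in the other lymphomas. Of 12 listed stromal and epithelial markers, 6 were tested, 2 were called higher in lymphoma and 1 lower (median log2 fold change 1.35). Over all tested genes, 24.7% were called higher and 21.9% lower. Pecam1, an endothelial gene that leukocytes also express, had 186 to 198 CPM in CD4 and 59.2 to 81.2 CPM in lymphoma, whereas Epcam, an epithelial gene, had 1.05 to 1.92 CPM in CD4 and 6.99 to 50.6 CPM in lymphoma, and the fibroblast gene Dcn 0 CPM in CD4 and 1.71 to 7.35 CPM in lymphoma. The part of these cells in the results was not tested. In bulk RNA, fewer cells of a type and less RNA per cell cannot be told apart.

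The comparison asked which parts of the receptor complex the lymphomas kept and which coreceptor they carried, relative to CD4 T cells. The CD3 chains were present in every lymphoma near the CD4 level, Cd4 was lower in every lymphoma, and both CD8 genes were close to absent in all lymphomas other than lymphoma 53. By edgeR's quasi-likelihood test, 1 of the 9 genes (Cd4) had a Benjamini-Hochberg adjusted p under 0.05, and it was lower. Over all tested genes 46.6% were called in either direction and 21.9% were called lower. Without lymphoma 53, the number of called genes among the 9 was 3, all lower (Cd4, Cd8a and Cd8b1). In that fit 53.6% of genes were called. Lymphoma 53 is the lymphoma with high Cd8a and Cd8b1, so leaving it out favours a fall of both. With limma voom, which kept lymphoma 53, the number was also 3. The median log2 fold change of the 9 genes was -0.39, against 0.04 over all tested genes.

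**Figure D1:**
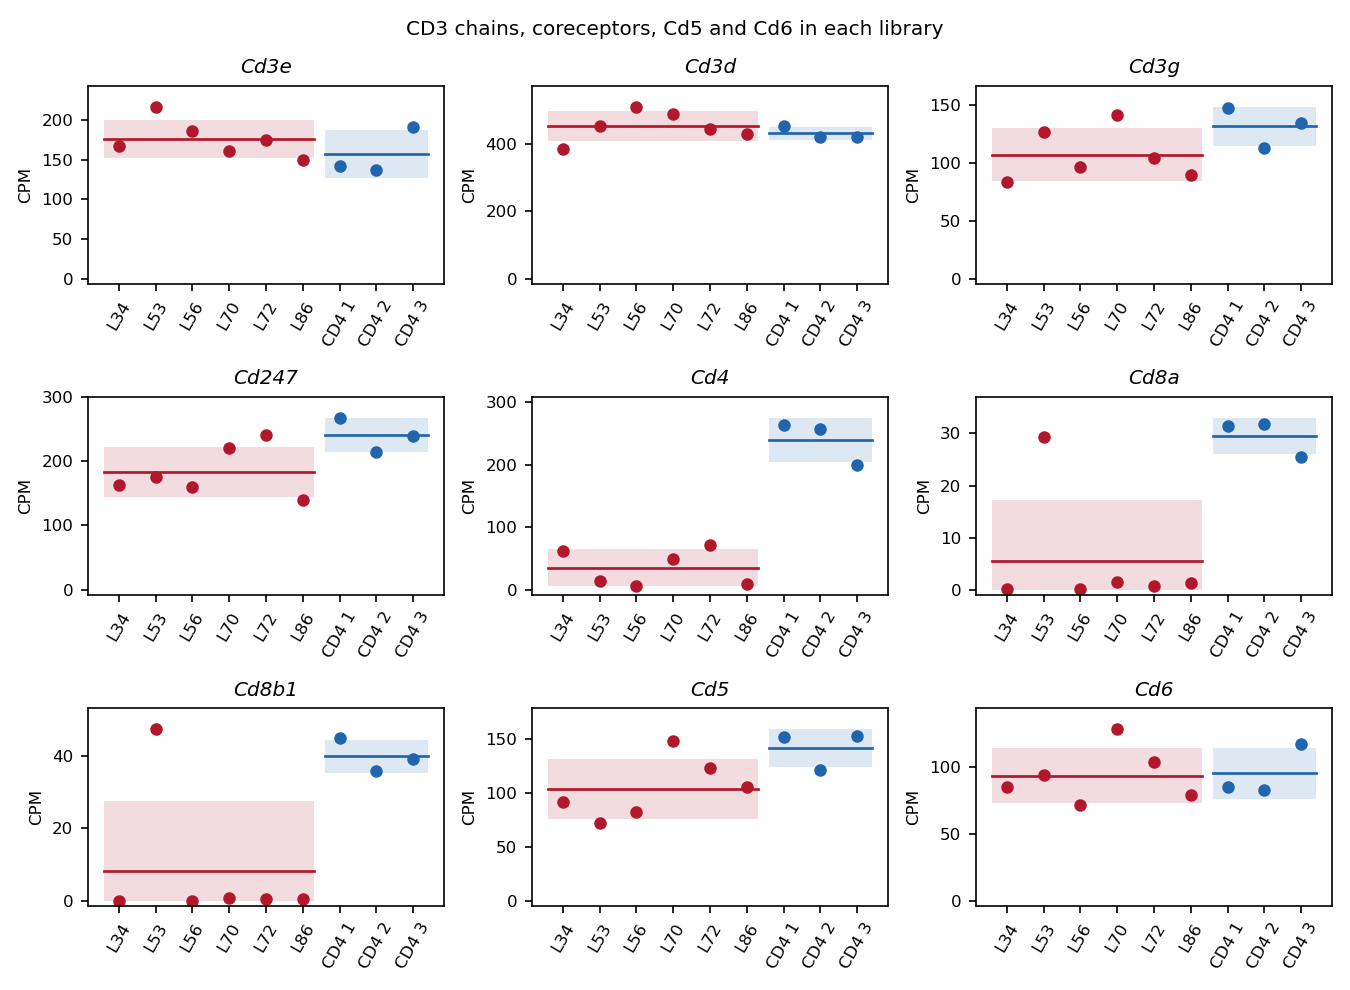
Each panel plots the CPM of 1 gene in every library, with lymphomas in red (L34 is lymphoma 34) and CD4 libraries in blue. Lines are group means and bands are 1 SD (6 lymphomas, 3 CD4 libraries). Cd4 lies below every CD4 library in all 6 lymphomas, and lymphoma 53 is the only lymphoma with Cd8a and Cd8b1 near the CD4 level.

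Among the CD3 chains, Cd3e (ENSMUSG00000032093, chr9:44998740-45009627 in GRCm38), the epsilon chain shared by both CD3 dimers, had 167, 217, 186, 161, 175 and 149 CPM in lymphomas 34, 53, 56, 70, 72 and 86, and 142, 137 and 191 CPM in CD4 1, 2 and 3. The groups overlapped, with lymphoma 53 alone above the CD4 range. The log2 fold change of Cd3e (positive where the gene was higher in lymphoma) was 0.17 (SE 0.17, edgeR adjusted p 0.460, 95% interval -0.21 to 0.54).

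Cd3d (ENSMUSG00000032094, chr9:44981786-44987339), the delta chain, had 386, 454, 511, 489, 444 and 431 CPM in the lymphomas in the same order and 453, 419.9 and 421 CPM in CD4. Lymphoma 34 lay below the CD4 range and lymphomas 53, 56 and 70 above it. Its log2 fold change was 0.07 (SE 0.14, edgeR adjusted p 0.711, 95% interval -0.23 to 0.36), and -0.034 with upper quartile scaling, so no direction can be given. With edgeR the interval of Cd3d allows no mean change as large as 2-fold either way.

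Cd3g (ENSMUSG00000002033, chr9:44969572-44980431), the gamma chain, had 83.2, 127, 96.6, 141, 104 and 89.5 CPM in lymphoma and 147, 113 and 134 CPM in CD4. Lymphomas 34, 56, 72 and 86 lay below the CD4 range and the other two within it. The log2 fold change was -0.30 (SE 0.19, edgeR adjusted p 0.230, 95% interval -0.72 to 0.12). The starts of Cd3g and Cd3d are 1355 bases apart and the genes run in opposite directions, yet lymphoma 56 had the highest Cd3d and a Cd3g level below the CD4 range.

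Cd247 (ENSMUSG00000005763, chr1:165788681-165877277), the zeta chain that carries most of the activation motifs of the complex, had 163, 175, 161, 221, 241 and 139.9 CPM in lymphoma and 268, 215 and 239 CPM in CD4. Lymphomas 70 and 72 lay within the CD4 range and the other four below it. The log2 fold change of -0.39 (SE 0.19, 95% interval -0.80 to 0.018) had an edgeR adjusted p of 0.108. It passed the threshold with upper quartile scaling (-0.49, edgeR adjusted p 0.0494) and without lymphoma 72 (-0.49, edgeR adjusted p 0.0429), while its adjusted p spanned 0.0429 to 0.342 over the alternatives tried. Exons of Cd247 overlap those of Pou2f1 on the other strand and of Gm16565 on the same strand, and without a known strand setting, reads there cannot be assigned to a gene with certainty.

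The CD3 chains together summed to 919 ± 91.0 CPM (SD) over the 6 lymphomas and to 960.2 ± 66.2 CPM (SD) over the 3 CD4 libraries, and the ranges overlapped (799 to 1013 and 885 to 1010 CPM). The balance between the chains was examined as the share of each chain in the CD3 counts of a library. Such a share does not depend on library scaling or on RNA of cells that lack all of these genes. Cells that express only some of the chains can shift it, and their part was not tested. The NK receptor gene Ncr1 had 8.25 to 9.34 CPM in CD4 and 0 CPM in every lymphoma. Cd247 made up 19.9% ± 3.16 (SD, n = 6) of CD3 counts in lymphoma and 25.02% ± 1.31 (SD, n = 3) in CD4. In lymphomas 34, 53, 56, 70 and 86 it made up 16.8 to 21.8%, and in the CD4 libraries 24.3 to 26.5%. Lymphoma 72, at 25.04% (3694 of 14752 counts, Wilson 95% interval 24.3 to 25.7%), lay within the CD4 range. Cd3d made up 53.6% in lymphoma 56 and 53.2% in lymphoma 86, against 46.0 to 48.3% in the other lymphomas and 42.7 to 47.4% in CD4. Cd3g made up 11.6% ± 1.56 (SD, n = 6) in lymphoma and 13.6% ± 0.880 (SD, n = 3) in CD4, with overlap, and Cd3e 19.2% ± 2.23 and 16.3% ± 2.78, with overlap. No test was made on these shares.

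**Figure D2:**
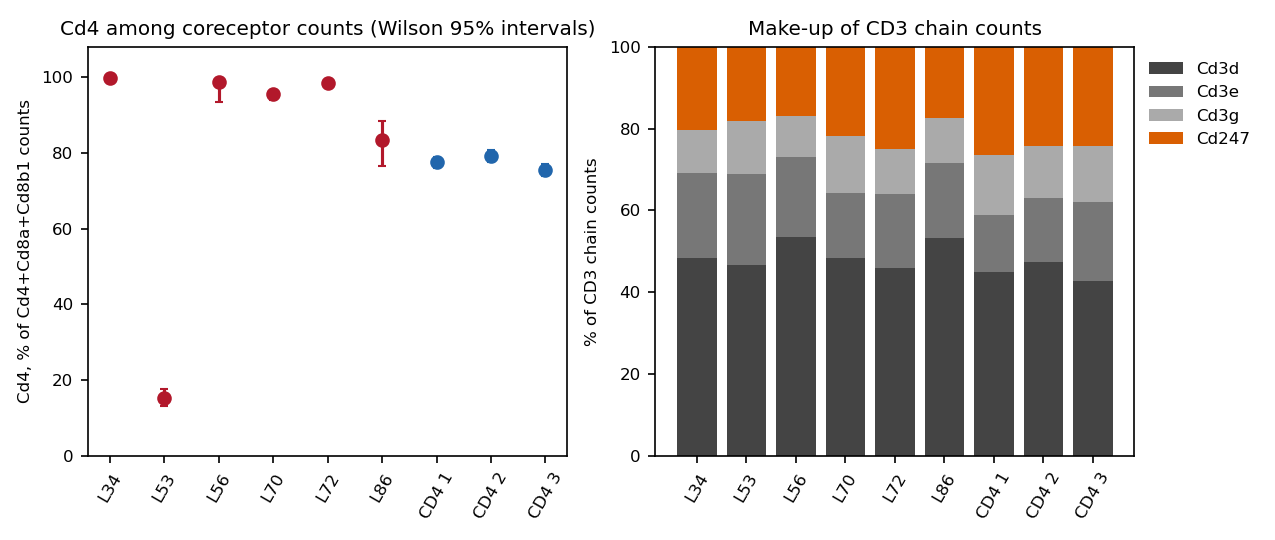
Left, the percentage of Cd4 among the counts of Cd4, Cd8a and Cd8b1 in each library (lymphoma red, CD4 blue, Wilson 95% intervals). Right, the percentage of each chain in the CD3 counts of each library. Lymphoma 53 is at 15.2% Cd4 while the other lymphomas lie between 83.3 and 99.9%, and the Cd247 block is smaller in all lymphomas other than 72 than in the CD4 libraries.

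Cd4 (ENSMUSG00000023274, chr6:124864692-124888221) encodes the coreceptor for MHC class II and is the gene by which the control cells are named, so its high level in CD4 is part of how that group is defined. It had 62.5, 13.8, 6.03, 48.5, 71.8 and 9.01 CPM in lymphomas 34, 53, 56, 70, 72 and 86, and 263, 257 and 199 CPM in CD4 1, 2 and 3. All 6 lymphomas lay below all 3 CD4 libraries, as was the case for 22.3% of all tested genes, and no other gene of the 9 was without overlap (22.6% of all tested genes lay higher in every lymphoma). Cd4 fell 6.78-fold, which is -2.76 on the log2 scale (SE 0.72, 95% interval -4.37 to -1.15, edgeR adjusted p 0.0111). Over 18 alternatives the change stayed between -3.28 and -2.50 and the adjusted p between 0.000948 and 0.0415.

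The fall of Cd4 was uneven. Lymphomas 34, 70 and 72 kept 26.1, 20.2 and 29.9% of the mean CD4 level, while lymphomas 53, 56 and 86 kept 5.75, 2.52 and 3.76%. Within lymphoma the highest level of Cd4 was 11.9-fold above the lowest, against 1.32-fold to 1.73-fold for the CD3 chains of lymphoma. In order, lymphomas 72 and 34 and then 70 had the highest levels, followed by 53, 86 and 56. The counting intervals of lymphomas 34 and 72 do not overlap (58.6 to 66.6 and 67.6 to 76.1 CPM), but how much a repeat library of 1 lymphoma would vary was not measured. Relative to CD3, Cd4 had 3.87 ± 3.27 counts per 100 CD3 counts (SD, n = 6) in lymphoma and 25.1 ± 4.51 (SD, n = 3) in CD4. The ranges were 0.632 to 7.83 and 20.2 to 29.0, without overlap, so the lower level was also present when each library was measured against its own CD3 counts. B cell and dendritic cell markers, given above, were higher in CD4 than in lymphoma. The edgeR fit scaled to CD3 counts, an alternative added after the data were seen, gave -2.69 for Cd4 (adjusted p 0.0155).

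Cd8a (ENSMUSG00000053977, chr6:71373427-71379173), the CD8 alpha chain, was counted 1, 322, 1, 25, 11 and 19 times in lymphomas 34, 53, 56, 70, 72 and 86, and 329, 265 and 279 times in CD4 1, 2 and 3. In CPM these were 0.0644, 29.4, 0.0727, 1.53, 0.719 and 1.37 in lymphoma and 31.3, 31.8 and 25.6 in CD4. Lymphoma 53 lay within the CD4 range and the other five far below it. Relative to the CD4 mean, Cd8a was 19.3-fold lower in lymphoma 70, 41.1-fold in lymphoma 72 and 21.6-fold in lymphoma 86. That CD4 level came with transcripts of CD8 T or NK cells, given below, whose part in it was not tested. The single count in lymphoma 34 came to 0.218% of the CD4 mean (95% Poisson interval 0.00552 to 1.21%), and that in lymphoma 56 to 0.246% (0.00622 to 1.37%).

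Cd8b1 (ENSMUSG00000053044, chr6:71322788-71337494), the CD8 beta chain, lies 35932 bases upstream of Cd8a on the same strand. It was counted 0, 521, 0, 12, 7 and 6 times in the lymphomas and 471, 299 and 426 times in CD4. Lymphoma 53, at 47.5 CPM, was above the CD4 range of 35.8 to 44.9 CPM. In lymphomas 34 and 56, with no count, Cd8b1 was at least 207-fold and 183-fold lower than the CD4 mean, taking the limit of 3 counts per library. In lymphomas 70, 72 and 86 it was 54.4-fold, 87.2-fold and 92.3-fold lower. As for Cd8a, the part of other cells in the CD4 level of Cd8b1 was not tested.

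With all 6 lymphomas, neither CD8 gene passed the threshold. The log2 fold change was -2.44 for Cd8a (SE 1.46, edgeR adjusted p 0.207) and -2.31 for Cd8b1 (SE 1.77, edgeR adjusted p 0.324). Lymphoma 53 decided these values. Without it Cd8a fell by 5.28 (SE 0.68, edgeR adjusted p 9.34e-05) and Cd8b1 by 6.88 (SE 0.64, edgeR adjusted p 7.95e-06) on the log2 scale. Lymphoma 53 is the lymphoma with high Cd8a and Cd8b1, so leaving it out favours a fall of both. The p-values without it are therefore no separate support. With limma voom on all libraries the values were -5.18 (adjusted p 0.000559) and -6.61 (adjusted p 0.000392). DESeq2 gave no adjusted p for either gene. Their adjusted p spanned 9.34e-05 to 0.309 (Cd8a) and 7.95e-06 to 0.423 (Cd8b1) over the alternatives that gave a value. All these changes are relative to CD4 libraries that also held RNA of other cell types. The part of those cells in Cd8a and Cd8b1 was not tested.

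**Figure D3:**
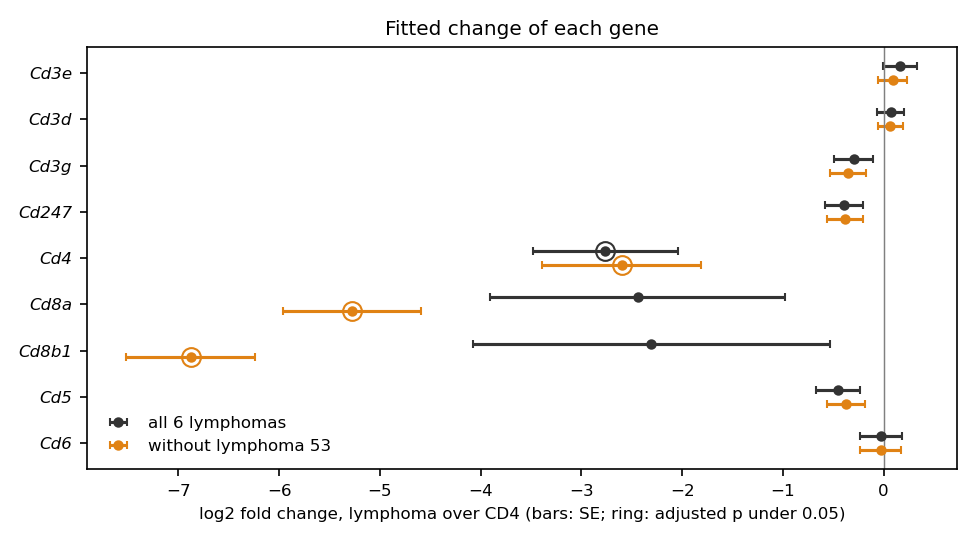
Fitted log2 fold changes of the 9 genes by edgeR, with all 6 lymphomas (black) and without lymphoma 53 (orange). Bars are standard errors and rings mark an adjusted p under 0.05. Only Cd4 is ringed with all lymphomas, and Cd8a and Cd8b1 move from -2.44 and -2.31 to -5.28 and -6.88 without lymphoma 53. Lymphoma 53 is the lymphoma with high Cd8a and Cd8b1, so leaving it out favours a fall of both.

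The balance of the CD8 chains was compared where counts allowed it. Cd8b1 made up 61.8% of the CD8 counts in lymphoma 53 (521 of 843, Wilson 95% interval 58.5 to 65.0%) and 58.9, 53.01 and 60.4% in CD4 1, 2 and 3. In lymphoma 70 the share was 32.4% (12 of 37 counts, Wilson 95% interval 19.6 to 48.5%) and in lymphoma 86 it was 24.0% (6 of 25, 11.5 to 43.4%). Both intervals lie below the shares of the CD4 libraries. Lymphoma 72 had 7 of 18 counts, an interval of 20.3 to 61.4%, and lymphomas 34 and 56 had 1 CD8 count each, so no balance was detectable there.

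The promoter sequences of Cd8a and Cd3d are set beside each other because Cd8a was almost silent in most lymphomas while Cd3d was kept in all of them. RefSeq (GRCm38.p6) gave such sequences for 6 of the 9 genes, and Cd4, Cd8b1 and Cd6 were not among them. The 250 bases before the start are printed on the gene's strand, 5′ to 3′, from chr6:71373177-71373426 and chr9:44981536-44981785, both plus strand. Capitals mark matches, on either strand, to the E-box (CANNTG), which E proteins bind, and to a core of TCF and LEF sites (CTTTGA).
Cd8a: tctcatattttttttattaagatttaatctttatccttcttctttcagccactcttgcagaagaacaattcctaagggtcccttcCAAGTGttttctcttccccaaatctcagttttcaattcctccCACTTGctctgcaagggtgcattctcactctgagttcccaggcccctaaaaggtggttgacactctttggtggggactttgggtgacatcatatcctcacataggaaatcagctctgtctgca
Cd3d: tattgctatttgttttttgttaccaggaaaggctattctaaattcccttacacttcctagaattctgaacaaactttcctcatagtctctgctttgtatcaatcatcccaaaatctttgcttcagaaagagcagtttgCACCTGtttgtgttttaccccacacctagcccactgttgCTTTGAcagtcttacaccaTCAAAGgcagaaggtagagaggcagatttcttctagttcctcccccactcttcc
The Cd8a stretch has 2 E-box matches, starting 165 and 123 bases before the start, and no TCF/LEF match. The Cd3d stretch has 1 E-box match, 112 bases before the start, and 2 TCF/LEF matches, at 73 and 54 bases. Neither stretch holds the RUNX core (letters TGTGGT) on either strand. The GATA site (letters AGATAA) was also searched and matched neither stretch, while the ETS core (letters GGAA), which 93.4% of promoter stretches hold, matched 6 times in each. Of 32851 mouse promoter stretches of this length, 66.2% hold an E-box match, 13.8% the TCF/LEF core, 14.0% the RUNX core and 9.99% the GATA site, searched on both strands, and the marked matches do not overlap each other.

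Read together, the coreceptor genes placed the lymphomas in different states. Lymphomas 34, 70 and 72 had reduced Cd4 and little or no Cd8. Cd4 made up 99.9% (971 of 972 counts), 95.5% (793 of 830) and 98.4% (1098 of 1116) of their coreceptor counts. In the CD4 libraries, which also held RNA of other cell types, it made up 77.5, 79.2 and 75.5%. These 3 lymphomas thus held less Cd8 per Cd4 count than the CD4 libraries did. Lymphomas 56 and 86 had little of either, at 84 and 150 coreceptor counts in all, with Cd4 shares of 98.8% (Wilson 95% interval 93.6 to 99.8%) and 83.3% (76.6 to 88.4%). Lymphoma 53 had Cd4 at 15.2% (151 of 994, Wilson 95% interval 13.1 to 17.6%), the reverse of the others. These descriptions rest on 1 library per lymphoma.

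**Figure D4:**
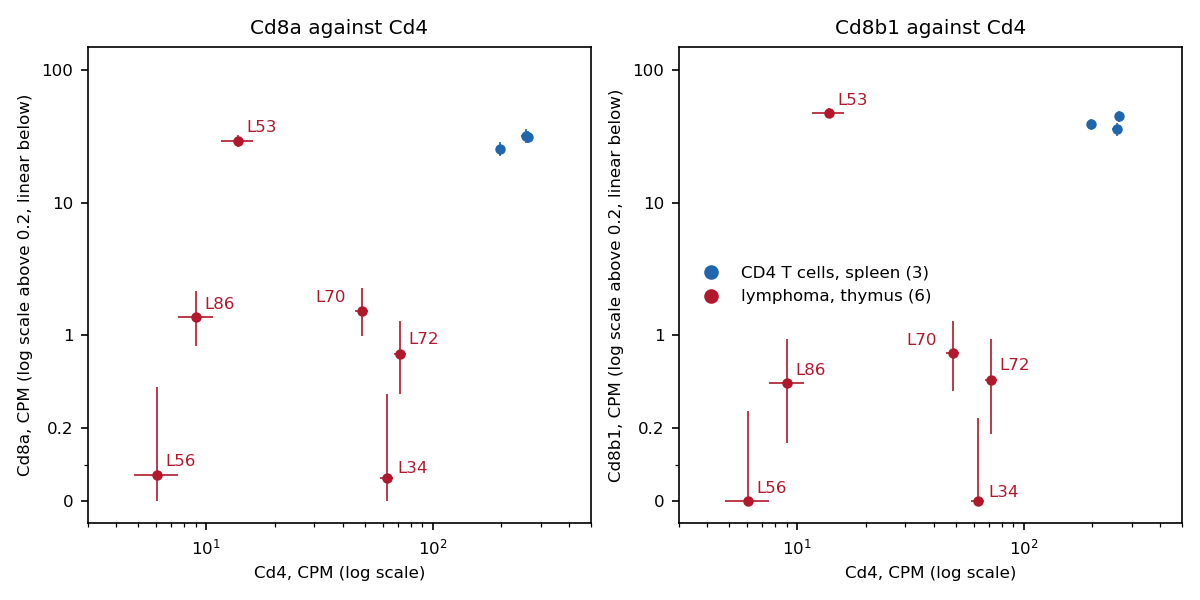
Cd8a (left) and Cd8b1 (right) against Cd4 in CPM for each library, with exact Poisson 95% intervals of the counts. Lymphomas are red (L34 is lymphoma 34) and CD4 libraries blue. The vertical axis is logarithmic above 0.2 CPM and linear below it. Lymphoma 53 sits at 13.8 CPM Cd4 with CD8 near the CD4 libraries, lymphomas 34, 70 and 72 at 48.5 to 71.8 CPM Cd4 with CD8 near 0, and lymphomas 56 and 86 low on both axes.

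Cell type markers were read beside these states. Thymocytes that carry both coreceptors express Rag1, Rag2 and Ptcra. These were at 0 to 0.182 CPM (Rag1), 0 CPM (Rag2) and 0 to 0.0727 CPM (Ptcra) in the 6 lymphomas. In CD4, Rag1 and Ptcra were at 0 CPM and Rag2 at 0 to 0.120 CPM, so these genes do not separate the groups. Arpp21, of the same list, had 5.47 CPM in lymphoma 53, at most 0.0612 CPM in the other lymphomas and 0 to 0.959 CPM in CD4. Of the whole list of 16 thymocyte markers, 12 were tested, 9 were called lower in lymphoma and 1 higher. Over all tested genes, 21.9% were called lower and 24.7% higher. The 16 markers summed to 282 to 404 CPM in lymphoma and 1356 to 1591 CPM in CD4. The marker that rose was Cd24a, a surface protein gene of immature thymocytes and of B cells, with 146 to 237 CPM in lymphoma and 27.3 to 61.7 CPM in CD4. The part of thymocytes in the coreceptor levels was not tested. Of 12 listed CD8 T and NK cell markers, 11 were tested (median log2 fold change -6.59). Of these, 8 were called lower in lymphoma and 1 higher, beside 21.9% and 24.7% of all tested genes. In each lymphoma 6 or 7 of the 12 had counts, and 7 in lymphoma 53. Their sum was 830.3 CPM in lymphoma 53, 337 to 616 CPM in the other lymphomas and 335 to 437 CPM in CD4, and most of it in lymphoma was Gzma. Gzma stood at 784 CPM in lymphoma 53, 298 to 552 CPM in the other lymphomas and 63.2 to 73.8 CPM in CD4, and Eomes, a T-box factor of CD8 memory and NK cells, at 18.0 CPM in lymphoma 53, at most 0.291 CPM in the others and 21.6 to 25.9 CPM in CD4. Of the NK receptor genes, Ncr1 was at 0 in every lymphoma, and Klrd1 at 0 in lymphomas 53 and 56 and at most 1.95 CPM in the others. Klrb1c had 0 CPM in lymphoma 53, 9.54 to 61.1 CPM in the other lymphomas and 22.0 to 32.4 CPM in CD4. Gzmk had 12.2 CPM in lymphoma 53, at most 0.0727 CPM in the other lymphomas and 0 to 1.43 CPM in CD4. The rest of the list lay below every CD4 library in lymphoma 53. Prf1 and Gzmb had 0 CPM there, and Klrk1 and Xcl1 had 1 count each. Ccl5 had 1.73 CPM in lymphoma 53 and 84.5 to 162 CPM in CD4. Nkg7 had 14.7 CPM in lymphoma 53, 20.2 CPM in lymphoma 34 and 44.5 to 67.8 CPM in CD4. Dendritic cell markers summed to 387 CPM in lymphoma 53 and 126 to 149 CPM in the other lymphomas. Irf8 held 268 CPM of the sum in lymphoma 53. Xcr1 and Clec9a, which define the dendritic cells that carry CD8 alpha, stood at 1.73 and 2.10 CPM in lymphoma 53. The other lymphomas had 0.721 to 2.63 CPM (Xcr1) and 0 to 1.53 CPM (Clec9a), and CD4 1.80 to 3.66 and 2.95 to 18.9 CPM. Itgax had 5.47 CPM in lymphoma 53, 0.872 to 3.20 CPM in the other lymphomas and 38.3 to 54.9 CPM in CD4. The part of dendritic cells in the Cd8a level of lymphoma 53 was not tested. The CD4 libraries had Klrd1 at 37.6 to 47.7 CPM and Klrk1 at 15.8 to 19.1 CPM, so their Cd8a and Cd8b1 counts came with transcripts of CD8 T or NK cells. The part of other cells in the Cd8a and Cd8b1 levels of the CD4 libraries was not tested.

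Cd5 (ENSMUSG00000024669, chr19:10717116-10739002) encodes an inhibitory receptor whose level on thymocytes follows the strength of receptor signalling, and which B-1 cells also carry. It had 91.9, 72.4, 82.6, 148, 123 and 105 CPM in lymphomas 34, 53, 56, 70, 72 and 86, and 152, 122 and 153 CPM in CD4. Lymphomas 70 and 72 lay within the CD4 range and the other four below it, with lymphoma 53 lowest. The log2 fold change was -0.45 (SE 0.22, 95% interval -0.93 to 0.027) with an edgeR adjusted p of 0.112, spanning 0.0511 to 0.286 over the alternatives. B cell markers were higher in CD4, as given above, and their part in Cd5 was not tested.

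Cd6 (ENSMUSG00000024670, chr19:10789341-10830058), a relative of CD5 that lies 50338 bases from it and binds the adhesion molecule ALCAM, had 85.3, 93.9, 72.1, 129, 104 and 79.2 CPM in lymphoma and 85.5, 83.4 and 118 CPM in CD4. The groups overlapped at both ends. The log2 fold change was -0.024 (SE 0.21, edgeR adjusted p 0.936, 95% interval -0.47 to 0.43), and its sign changed with several settings. Cd6 made up 47.7% ± 4.60 (SD, n = 6) of the summed Cd5 and Cd6 counts in lymphoma and 40.1% ± 3.81 (SD, n = 3) in CD4. The highest share was 56.5% in lymphoma 53 (1030 of 1824 counts), and lymphoma 86, at 42.9%, lay within the CD4 range of 36.0 to 43.5%. Its ligand gene Alcam, a partner chosen after its values were seen, averaged 3.55 ± 4.60 CPM (SD) in the 6 lymphomas and 36.8 ± 7.56 CPM (SD) in the 3 CD4 libraries (log2 fold change -3.36, edgeR adjusted p 0.00325). Alcam is also expressed by other cell types, whose part was not tested.

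**Figure D5:**
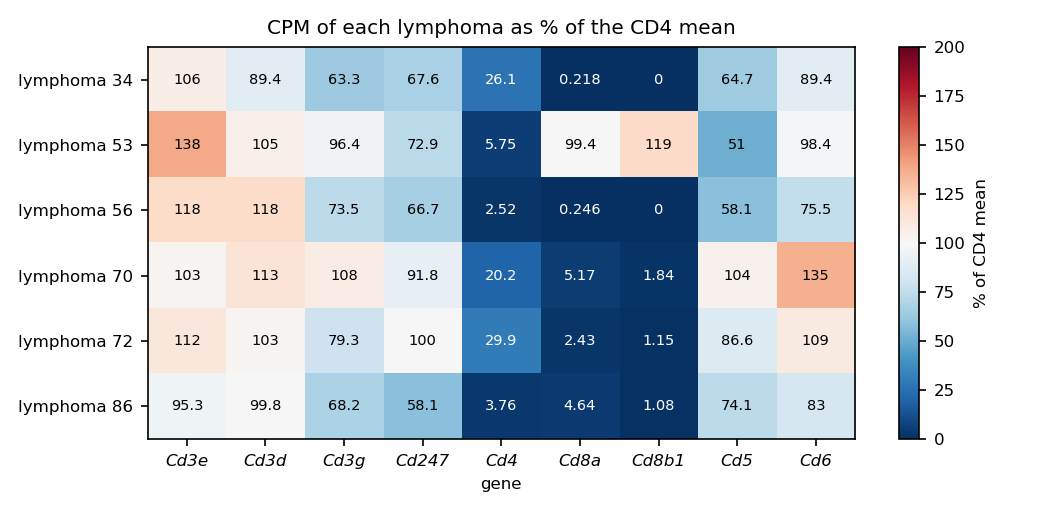
CPM of each of the 9 genes in each lymphoma as a percentage of the mean of the 3 CD4 libraries (white 100%, blue lower, red higher). The Cd4 column runs from 2.52 to 29.9%, the CD8 columns are at 5.17% or less outside lymphoma 53, and the CD3, Cd5 and Cd6 columns lie between 51.0 and 138%.

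The partners of the complex were described from 4 lists with 65 genes, of which 64 were tested, 11 rose and 34 fell. Over all tested genes, 24.7% were called higher and 21.9% lower. Of 8 genes for receptor constant regions and pre-TCR alpha, 3 of the 7 tested rose and none fell (median log2 fold change 2.56). The rises were the gamma constant regions, among them Tcrg-C4 (6.13, SE 0.66, edgeR adjusted p 4.08e-05) and Tcrg-C2 (5.95, SE 0.40, edgeR adjusted p 7.14e-07). Near-identical constant regions share reads that align to several places, so these levels are uncertain. Trdc, the delta constant region, chosen after its values were seen, had 316 and 259.5 CPM in lymphomas 56 and 86, at most 0.588 CPM in the other lymphomas and 14.9 to 18.1 CPM in CD4. Lymphomas 56 and 86 are also those with the lowest Cd4 and the highest Cd3d share. Trbc1, a beta constant region also chosen after its values were seen, was not called. It had 5.11 CPM in lymphoma 53, 438 to 1834 CPM in the others and 538 to 623 CPM in CD4. Trbc2, the other beta constant region, likewise chosen, had 3621 CPM in lymphoma 53. It had 943 to 1752 CPM in the other lymphomas and 1596 to 1922 CPM in CD4.

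Of 30 genes for proximal receptor signalling, 19 fell, 1 rose and 10 were not called (median log2 fold change -1.33, against 0.04 over all tested genes). The shares among all tested genes were 21.9% called lower and 24.7% called higher. Lck, whose kinase the coreceptors bind, had 437, 759, 412, 609, 651 and 369 CPM in the lymphomas and 767, 849.7 and 692 CPM in CD4. Its log2 fold change of -0.51 was not called (SE 0.22, edgeR adjusted p 0.0796). Lymphoma 53 lay within the CD4 range and the other five below it. Zap70, the kinase that docks on phosphorylated CD3 chains, was the gene that rose, by 0.77 (SE 0.17, edgeR adjusted p 0.00330), with 78.1 ± 5.35 CPM (SD) in the 3 CD4 libraries and 133 ± 22.3 CPM (SD) in the 6 lymphomas. Without lymphoma 53, 2 genes of the list rose. Its relative Syk fell by 4.73 (SE 0.48, edgeR adjusted p 1.90e-05) and the Tec kinase gene Txk fell by 5.401 (SE 0.73, edgeR adjusted p 0.000274). Syk is also a kinase of B cells, whose markers were higher in CD4, and their part was not tested.

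Of 16 lineage factors that act on the coreceptor genes, 6 rose, 6 fell and 4 were not called (median -0.14), where 24.7% of all tested genes were called higher, 21.9% lower and 46.6% either way. Zbtb7b, which encodes the CD4 lineage factor ThPOK, had 10.8, 18.1, 15.3, 22.9, 21.6 and 16.2 CPM in the lymphomas and 62.0, 27.1 and 47.8 CPM in CD4. All lymphomas lay below all CD4 libraries, and Zbtb7b fell by 1.39 (SE 0.28, edgeR adjusted p 0.00175). Runx3, which represses Cd4 and acts in the CD8 lineage, had 147, 124, 71.6, 104, 130.5 and 39.6 CPM in lymphoma and 285, 246 and 293 CPM in CD4, and fell by 1.42 (SE 0.32, edgeR adjusted p 0.00356). Lymphoma 53, which kept Cd8a, had Zbtb7b and Runx3 within the range of the other lymphomas. Satb1 fell by 5.54 (SE 0.20, edgeR adjusted p 2.75e-08) and Lef1 by 1.77 (SE 0.15, edgeR adjusted p 4.38e-06), while Myb rose by 2.87 (SE 0.30, edgeR adjusted p 1.70e-05) and Cbfb, the partner of RUNX proteins, by 1.203 (SE 0.28, edgeR adjusted p 0.00415).

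Of 11 costimulatory genes and partners of CD5 and CD6, 9 fell, 1 rose and 1 was not called (median -2.25). The shares among all tested genes were 21.9% lower and 24.7% higher. Icos fell by 6.76 (SE 0.53, edgeR adjusted p 4.29e-06) and Cd7 by 5.45 (SE 0.72, edgeR adjusted p 0.000111), whereas the tetraspanin gene Cd81 rose by 1.06 (SE 0.23, edgeR adjusted p 0.00297).

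Genes with the most similar pattern over the 6 lymphomas were sought among 8825 genes by the mean absolute difference in log2 CPM, after centring each gene on its own mean. For Cd4 these were Sytl2, Nup210 and St8sia1, at 0.35, 0.35 and 0.37, where the median gene differed by 1.38. Nup210, which encodes a nucleoporin, had 153, 45.5, 37.9, 146, 174 and 34.2 CPM in lymphomas 34, 53, 56, 70, 72 and 86, the same split into 34, 70 and 72 against the rest. In CD4 it had 117 to 129 CPM, so unlike Cd4 it was not lower in lymphomas 34, 70 and 72. For Cd8a and Cd8b1 the most similar genes were Gramd3, Ccnd1 and Nsg2, at 0.74 to 0.92 for both, where the median gene differed by 1.79 and 1.99. Ccnd1, the cyclin D1 gene, had 113 CPM in lymphoma 53, 0.799 to 3.06 CPM in the other lymphomas and 27.6 to 47.6 CPM in CD4. Cd8a and Cd8b1 differed from each other by 0.42. Genes were kept for this search by their mean over all 9 libraries. Gramd3 and Ccnd1 passed only through their CD4 levels, which were 137 to 180 CPM for Gramd3. Both were low in all lymphomas other than 53, at 0.872 to 2.69 CPM for Gramd3. Their likeness is therefore mostly that of lymphoma 53 standing above the rest.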

How the data were processed

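Per the file headers and values, the deposited table holds raw read counts per Ensembl gene for 9 libraries. Per the submitters' processing notes, FastQC, HISAT2, SAMtools and HTSeq were used with mm10 (GRCm38). Annotation and strand setting are not given in the sources used here. The closing summary rows (reads in no gene) were left out, and genes held 38.7 to 49.1% of reads in lymphoma and 27.8 to 35.0% in CD4. The number of columns matching no sample was 0.

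Counts were tested with edgeR 4.0.16 (R 4.3.3): filterByExpr with a minimum count of 10 (15401 genes kept), TMM scaling, robust glmQLFit and glmQLFTest without covariates on all 9 libraries, Benjamini-Hochberg adjustment over all tested genes and a threshold of 0.05. The script was tested on simulated data. Standard errors are the absolute log2 fold change over the square root of F, and intervals use edgeR's total degrees of freedom. Log2 CPM used a prior count of 2. Shares have Wilson 95% intervals (scipy 1.17.1) and a group value needed 20 counts per library. Gene positions are from GENCODE M21 and promoters from RefSeq.

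The genes, lists and rules were chosen with earlier results of these data known. Besides the 9 genes, the text names from each list the 2 largest rises and 2 largest falls among called genes, Lck, Zbtb7b and Runx3, and the 3 genes most similar in pattern to Cd4, Cd8a and Cd8b1 with a mean log2 CPM of at least 3 over the 9 libraries. Outside this rule, Trdc, Trbc1, Trbc2, Alcam and the single genes named from the marker lists of other cell types were chosen after their values were seen. Alternatives were DESeq2 1.42.0, limma 3.58.1 voom, other scalings, filters and thresholds, and leaving out each library. No groups share replicate numbers, so no pairing was used.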

Additional observations from a re-analysis of the deposited data

Results flagged for a closer look

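In each of 21 measures of these genes, the most extreme lymphoma was compared with the next by Dixon's ratio (the gap between them as a part of the range of the 6 lymphomas) at its 95% critical value. It was exceeded in 5 measures, all in lymphoma 53, where chance gives about 1 in 20, or 1.05 of 21. The measures share the same counts and are not independent. Cd8a stood at 29.4 CPM in lymphoma 53 and 0.0644 to 1.53 CPM in the others, and Cd8b1 at 47.5 CPM against 0 to 0.734 CPM. Per 100 CD3 counts, Cd8a came to 3.02 in lymphoma 53 and at most 0.169 elsewhere, and Cd8b1 to 4.88 and at most 0.0725. Cd4 made up 15.2% of coreceptor counts in lymphoma 53 and 83.3 to 99.9% in the others.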

How the results depend on the processing

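The number of the 9 genes called was 1. It became 2 with upper quartile scaling, 3 with limma voom, 0 at an adjusted p under 0.01 by edgeR (where Cd4 alone had an unadjusted p under 0.05, and Cd4 is called by DESeq2 and limma voom at 0.05), and 1 to 3 when 1 library was left out, with 3 without lymphoma 53 and 2 without lymphoma 72. The other 14 alternatives gave 1. The mean Cd4 share of coreceptor counts in lymphoma was 81.9% and 77.7% in summed counts, with 78.3 to 95.2% when 1 lymphoma was left out, the highest without lymphoma 53. Over the 4 lists, 45 genes were called, and 40 to 50 under the alternatives. Upper quartile scaling shifted the median log2 fold change of all genes by -0.10, and no filter by 0.16. The sign of Cd3d turned with upper quartile scaling (-0.034), and that of Cd6 with no filter (0.0033), scaling to CD3 counts (0.038), and without lymphoma 34 (0.045), 56 (0.067) or 86 (0.053) or CD4 3 (0.16, where leaving out CD4 2 gave -0.11, the range when 1 library was left out), none of them past the threshold. The cause was not tested. DESeq2 gave no adjusted p for Cd8a and Cd8b1. With at least 10 counts in every library Cd8a and Cd8b1 were not tested. No paired analysis was possible because the groups share no replicate number. Counts under 10 limit the Cd8a and Cd8b1 values of lymphomas 34 and 56 and the Cd8b1 values of lymphomas 72 and 86.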
